A study of Mus musculus with 15 samples.

Results

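The genes described are 10 endothelial identity genes of the mouse: Pecam1, Cdh5, Kdr, Flt1, Tek, Tie1, Nos3, Vwf, Stab1 and Stab2. They were taken as every probe whose accession in the array files matches one of these symbols, which gave 14 probes of 41174 and 10 genes of 32301. They were measured on 15 single-colour Agilent arrays of total RNA, with 3 arrays in each of 5 groups. Cardiac allografts were C57BL/10 hearts placed in the abdomen of CBA recipients and taken at postoperative day (POD) 5. Hepatic allografts were B10.BR livers placed orthotopically in B10.D2 recipients and taken at POD5 or POD8. All mice were male, and the labels and methods name no transgene and no drug treatment for any group. Cardiac and hepatic controls are named normal tissue by the labels and methods and isografts by the study's results, so they are called controls here. The strain of the controls is not stated, so it may differ from that of the grafts. Each array stands for 1 labelled sample, the methods give 3 mice per time point in their account of PCR without tying arrays to mice, and the P-values cover the spread between these samples. Every sample is whole tissue, in which fewer endothelial cells and less RNA per endothelial cell cannot be told apart.

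Endothelial cells line blood vessels and are recognised by a shared set of junction proteins and receptor kinases. VEGF receptors and the angiopoietin receptor system keep the vessel wall alive and quiet, while nitric oxide and von Willebrand factor govern vessel tone and clotting. In the liver, sinusoidal endothelium differs from endothelium elsewhere: it is fenestrated, carries scavenger receptors such as the stabilins and makes little von Willebrand factor. In a transplanted organ the donor endothelium is the surface that recipient leukocytes meet first.

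The region before the gene start was at hand for 6 of the 10 members in RefSeq's table for the assembly GRCm38.p6. It is shown for the pairs Tek and Tie1, which encode the angiopoietin receptor and its partner receptor and fell together in the heart, and Stab1 and Stab2, related scavenger receptors that moved in opposite directions there. Each line holds the 250 bases before the start, read 5′ to 3′ along the gene. Capitals mark the letters AGGAAG or CGGAAG on either strand, forms of the core bound by ETS-family transcription factors. Tek lies on the plus strand (chr4:94739039-94739288). Tie1 (chr4:118489850-118490099), Stab1 (chr14:31168642-31168891) and Stab2 (chr10:87007943-87008192) lie on the minus strand.
Tek: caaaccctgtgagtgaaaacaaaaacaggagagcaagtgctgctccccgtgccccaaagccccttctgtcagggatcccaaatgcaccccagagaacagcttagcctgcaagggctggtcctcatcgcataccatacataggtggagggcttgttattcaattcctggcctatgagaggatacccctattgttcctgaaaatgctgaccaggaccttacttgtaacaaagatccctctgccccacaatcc
Tie1: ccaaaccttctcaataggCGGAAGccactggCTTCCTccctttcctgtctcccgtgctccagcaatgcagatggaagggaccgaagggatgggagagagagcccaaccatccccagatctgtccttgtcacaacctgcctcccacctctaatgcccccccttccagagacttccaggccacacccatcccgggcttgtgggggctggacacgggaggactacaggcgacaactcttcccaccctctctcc
Stab1: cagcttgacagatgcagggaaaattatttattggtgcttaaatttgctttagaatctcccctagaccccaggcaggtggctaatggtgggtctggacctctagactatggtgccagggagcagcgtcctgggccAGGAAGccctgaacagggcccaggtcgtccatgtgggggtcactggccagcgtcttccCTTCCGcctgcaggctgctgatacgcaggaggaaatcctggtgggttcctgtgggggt
Stab2: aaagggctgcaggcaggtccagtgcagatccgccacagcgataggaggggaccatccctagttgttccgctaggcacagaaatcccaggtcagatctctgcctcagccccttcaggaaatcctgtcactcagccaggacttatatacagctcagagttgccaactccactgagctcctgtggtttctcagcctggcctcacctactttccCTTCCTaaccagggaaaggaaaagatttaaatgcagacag
Of the 6 members, 4 held at least 1 of these letter runs. Flt1, Tie1 and Stab1 had 2 each, Stab2 had 1, and Tek and Kdr had 0. Of all 32851 windows of this length in the table, 39.2% held either run (AGGAAG 29.5%, CGGAAG 13.6%), and no match in a member overlapped another. The longer forms CAGGAAG and CCGGAAG, whose matches overlap those of the shorter ones, were searched too and occurred in 1 of the 6 members (Stab1), and in 10.8% and 6.91% of all windows. A match is a run of letters and was not tested as a binding site.

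Signals are normalised log2 intensities, and a gene was read from its brightest probe. A gene was called when its adjusted P (Limma, Benjamini-Hochberg over all probes tested) was below 0.05. The level of a probe depends on the probe itself, so levels are compared between groups and never between genes. Arrays differed in brightness. Cardiac controls had a 75th percentile signal of 1021 to 1247, cardiac allografts 394 to 710, hepatic allografts 338 to 478 and hepatic controls 92.1 to 226. All 7 cardiomyocyte markers were well above background on every cardiac array and all 7 hepatocyte markers on every hepatic array. Members were well above background on every array, with the exceptions of Pecam1 and of the dimmer Cdh5 and Stab1 probes on hepatic control 1, the array with the lowest signal. The 3 cardiac allografts were on 1 slide and the 3 cardiac controls on another, so in the heart slide and group cannot be told apart. Hepatic allografts at POD5 shared no slide with hepatic controls or with allografts at POD8, and cardiac controls shared none with hepatic controls. Those comparisons therefore cannot be made within a slide either. Among the pairs of groups compared, only the hepatic POD8 allografts and hepatic controls had a slide in common.

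**Figure D1:**
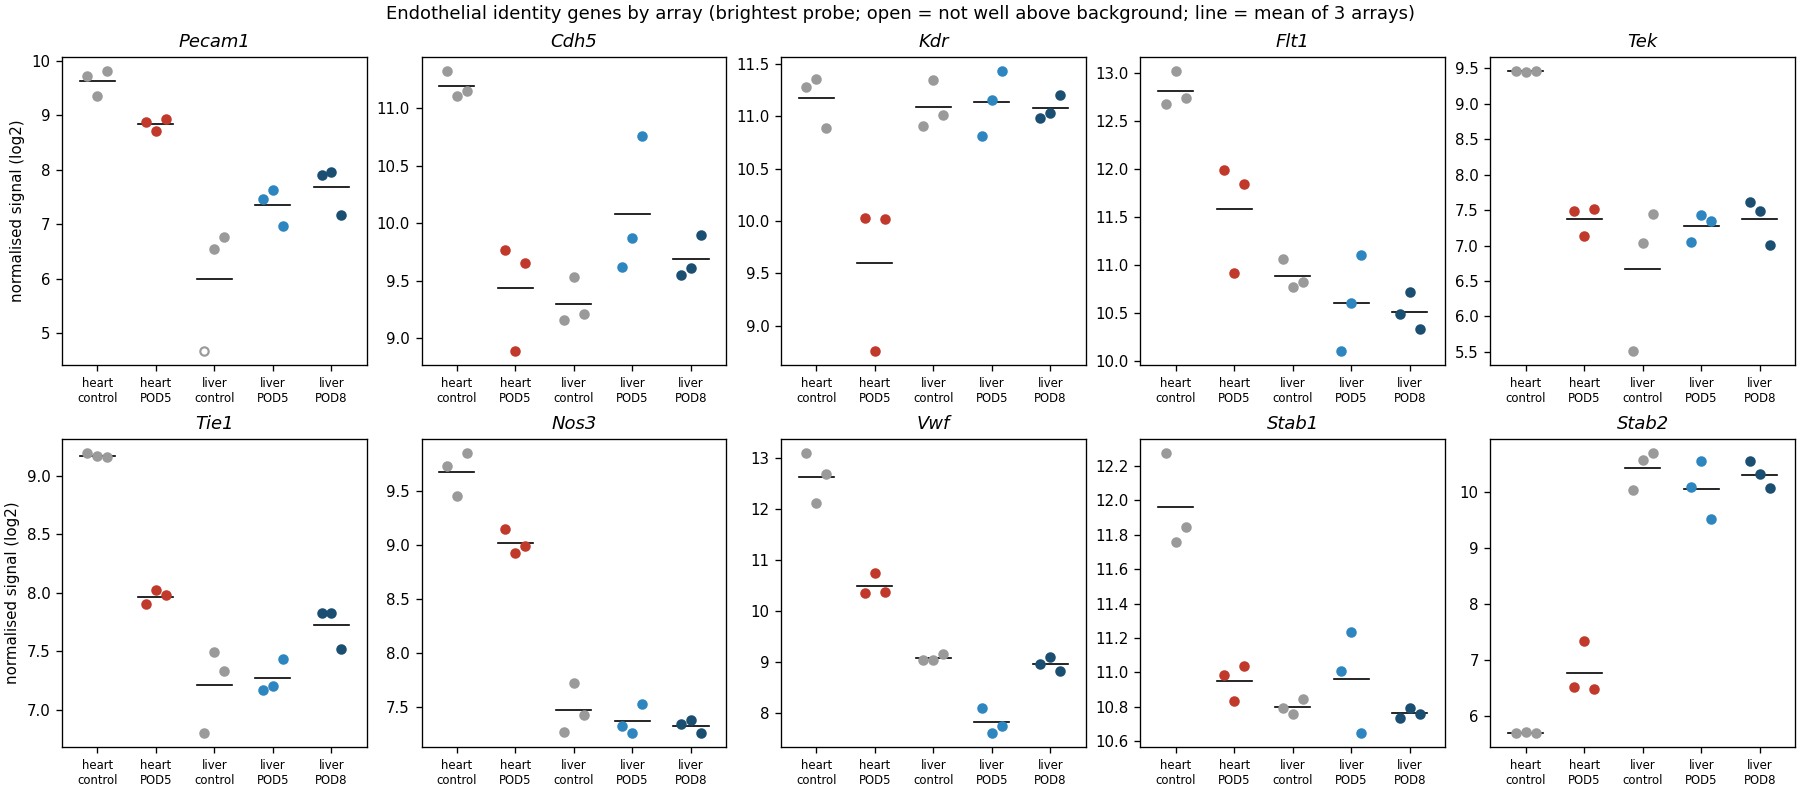
Normalised log2 signal (y axis, separate scale for each gene) of the 10 members on each of the 15 arrays, by group; points are arrays, lines are means of 3 arrays, and the open point (Pecam1, hepatic control 1) was not well above background. Heart allografts lie below heart controls for 9 genes and above them for Stab2, whereas most liver groups overlap.

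In the cardiac allografts at POD5, 9 of the 10 endothelial genes were lower than in the controls and Stab2 was higher, and all 10 passed the test. The falls ranged from 1.58-fold for Nos3 to 4.45-fold for Vwf, and Stab2 was 2.10-fold higher. The background was large, since 32.0% of all 41025 probes were called, 16.4% as lower and 15.6% as higher. Allografts and controls did not overlap for any of the 10 members, against 25.5% of all probes with allografts wholly below and 29.1% wholly above the controls. The median difference of the members was -1.22 on the log2 scale, and that of all probes was 0.02. When each array was scaled to its 75th percentile in place of quantile normalisation, the median of all probes moved to 0.47, calls split into 15727 higher and 5469 lower probes instead of 6394 and 6722, and the 10 members were called in the same directions.

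Among the receptor kinases, Tek, the receptor of the angiopoietins, had log2 signals of 7.48, 7.13 and 7.52 in the cardiac allografts and 9.46, 9.45 and 9.46 in the controls. The controls were nearly identical and every allograft lay about as far below them. Tek fell by 2.08 (SE 0.13, adjusted P = 8.9e-04), a 4.22-fold decrease. Tie1, the orphan partner of Tek, had signals of 7.90, 8.02 and 7.98 in the allografts against 9.19, 9.16 and 9.16 in the controls. Both groups were tight, and Tie1 fell by 1.20 (SE 0.08, adjusted P = 0.00102), which is 2.30-fold.

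Kdr, the main signalling receptor for VEGF-A, had signals of 10.03, 8.76 and 10.01 in the cardiac allografts and 11.28, 11.36 and 10.89 in the controls. Allograft 2 was the lowest by more than a log2 unit. The decrease of 1.57 (SE 0.39, adjusted P = 0.0333) became 1.15 without that array and was still called, but the call was lost in 4 of the 6 fits that left out an array. Flt1, the VEGF receptor that binds the ligand tightly but signals weakly, had signals of 11.98, 10.92 and 11.84 against 12.67, 13.02 and 12.74. Allograft 2 was again the lowest, and Flt1 fell by 1.23 (SE 0.31, adjusted P = 0.0349). The dimmer Flt1 probe fell by 1.52 (adjusted P = 0.0093). On that array the 75th percentile of the signal was 394, against 706 and 710 on the other cardiac allografts.

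Cdh5, which encodes VE-cadherin of the endothelial adherens junction, had signals of 9.77, 8.89 and 9.65 in the cardiac allografts and 11.33, 11.11 and 11.15 in the controls. It fell by 1.76 (SE 0.26, adjusted P = 0.00682), a 3.39-fold decrease. The other Cdh5 probe, designed to the same accession, read 8.28, 7.42 and 8.26 in the allografts and 8.32, 8.41 and 8.11 in the controls. These groups overlapped, and the difference of -0.29 did not pass the test (SE 0.27, adjusted P = 0.448), so the 2 probes disagreed on the size of the Cdh5 change. Pecam1, the CD31 adhesion molecule of endothelium, platelets and leukocytes, had signals of 8.88, 8.72 and 8.93 against 9.73, 9.36 and 9.82. It fell by 0.79 (SE 0.15, adjusted P = 0.0146), among the smaller decreases.

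Vwf, the clotting glycoprotein stored in endothelial granules and in platelets, had signals of 10.35, 10.74 and 10.38 in the cardiac allografts and 13.10, 12.13 and 12.69 in the controls. The lowest control stood more than a log2 unit above the highest allograft. Vwf fell by 2.15 (SE 0.28, adjusted P = 0.00482) on the brighter probe and by 2.31 (SE 0.26, adjusted P = 0.00345) on the dimmer one. Nos3, the endothelial nitric oxide synthase, had signals of 9.15, 8.93 and 8.99 against 9.74, 9.45 and 9.85. It fell by 0.66 (SE 0.14, adjusted P = 0.0194), the smallest decrease of the 9.

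Stab1, a scavenger receptor of sinusoidal endothelium and of some macrophages, had signals of 10.98, 10.84 and 11.04 in the cardiac allografts and 12.28, 11.76 and 11.84 in the controls. It fell by 1.01 (SE 0.16, adjusted P = 0.00931). On the dimmer Stab1 probe the groups did not overlap either, but the difference of -0.65 did not pass (adjusted P = 0.0561). Stab2, its relative and a hyaluronan clearance receptor of sinusoids, ran the other way, with 6.51, 7.33 and 6.48 in the allografts and 5.69, 5.72 and 5.69 in the controls. Stab2 was higher by 1.07 (SE 0.25, adjusted P = 0.0275), and allograft 2 was the highest array. Without that array the difference was 0.80 and was still called, but the call was lost when any of the 3 controls was left out. Before normalisation, on the linear scale, Stab2 read 155, 139 and 151 in the allografts and 136, 109 and 114 in the controls. On that scale the groups lay closer together and allograft 2 was the lowest allograft, so the size of the rise depends on the scaling.

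How firmly the 10 calls stood depended on the array left out. Without cardiac control 1 or cardiac control 3, 5 members were called, and in both cases these were Cdh5, Tek, Tie1, Vwf and Stab1. Without cardiac control 2 or cardiac allograft 3, 7 members were called, Kdr and Flt1 being lost both times together with Stab2 or Nos3. Standardized fold change (SFC), a method developed in the study that takes a probe's variance from probes of similar level, called 0 members after Bonferroni adjustment and 2 at an unadjusted P below 0.05, where it called 242 and 3707 of all 41025 probes.

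**Figure D2:**
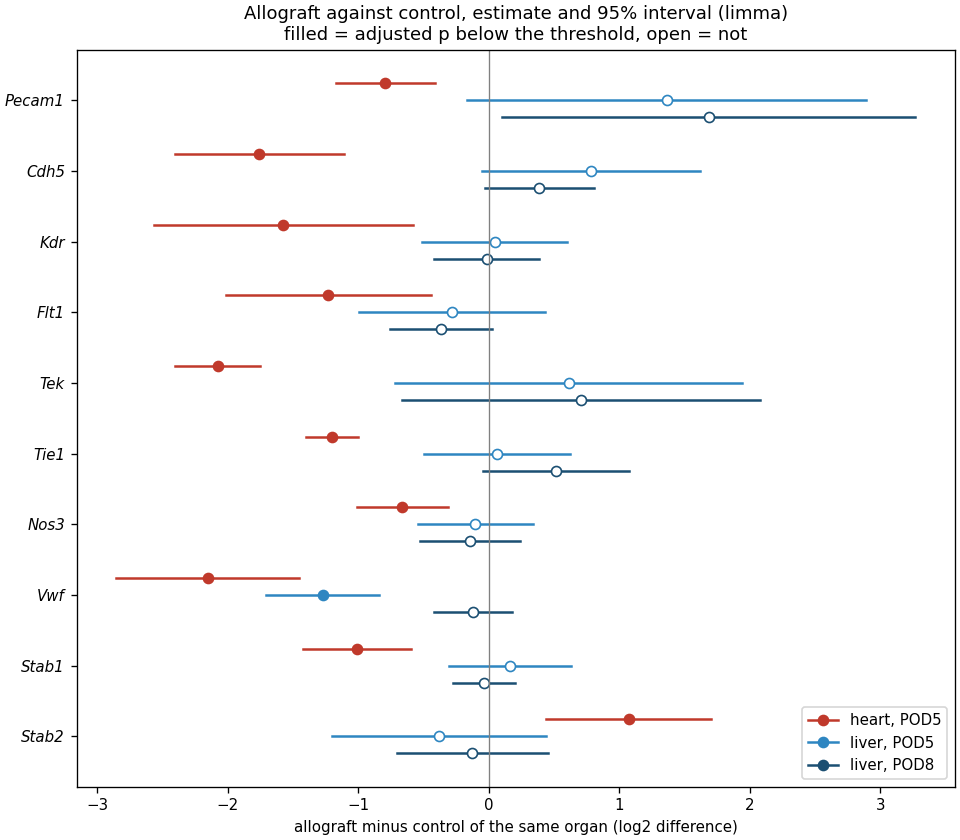
Log2 difference of allograft minus control of the same organ (x axis) for each member (y axis), with 95% intervals from Limma; red is heart at POD5, light blue liver at POD5 and dark blue liver at POD8, 3 arrays a group, and filled points passed the adjusted test. All 10 red points are filled, 9 of them left of 0, and 1 of the 20 liver points (Vwf at POD5) is filled.

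In the hepatic allografts at POD5, Vwf was the only member that passed the test, and it was lower. Its signals were 8.10, 7.59 and 7.74 in the allografts and 9.04, 9.04 and 9.16 in the controls. Every allograft lay almost a log2 unit or more below the lowest control. Vwf fell by 1.27 (SE 0.17, adjusted P = 0.0314), a 2.41-fold decrease, and by 1.56 (adjusted P = 0.0346) on the dimmer probe. Before normalisation, on the linear scale, the brighter probe read 301, 186 and 163 in the allografts and 114, 203 and 302 in the controls. Those values overlapped, on arrays whose 75th percentile signal was 338 to 478 and 92.1 to 226. The decrease was therefore seen only after the arrays were scaled to each other. In this comparison 3.16% of all 41155 probes were called, 0.778% as lower and 2.38% as higher, and 18.8% lay wholly below the controls, as Vwf did. The Vwf call was lost when any 1 of the 6 arrays was left out (adjusted P 0.0645 to 0.113) while the difference stayed between -1.42 and -1.17, and with slide as a random block (adjusted P = 0.0613). It was also lost under SFC and the t test.

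The other 9 members did not pass at POD5, and their differences ran from -0.38 for Stab2 to 1.36 for Pecam1. Pecam1 had signals of 7.47, 7.64 and 6.98 in the hepatic allografts at POD5 and 4.67, 6.55 and 6.77 in the controls. The groups did not overlap, as in 12.4% of all probes in that direction, but control 1 was not well above background. The difference of 1.36 had a 95% interval of -0.17 to 2.89 and was 0.70 without control 1. Cdh5 had signals of 9.62, 9.87 and 10.76 against 9.16, 9.53 and 9.21, with the highest value in allograft 3. Its groups did not overlap, yet the difference of 0.78 did not pass (95% interval -0.05 to 1.62, adjusted P = 0.265). Kdr differed by 0.05 (95% interval -0.51 to 0.60), Tie1 by 0.06 (-0.50 to 0.62), Nos3 by -0.10 (-0.54 to 0.34) and Stab1 by 0.16 (-0.30 to 0.63). Tek (0.61), Flt1 (-0.28) and Stab2 (-0.38) had wider intervals that also held 0, and all 7 of these genes overlapped between the groups.

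At POD8, 0 of the 10 members passed the test in the hepatic allografts against the same 3 controls, where 4.97% of all 41157 probes were called, 3.53% as higher and 1.44% as lower. While 9116 of all probes had an unadjusted P below 0.05, Pecam1 alone of the members did. Its signals were 7.92, 7.97 and 7.17 in the allografts at POD8, all above the controls given for POD5. The difference was 1.69 (SE 0.63, adjusted P = 0.203). It was called with 75th percentile scaling (adjusted P = 0.0412), as were 12875 of 41157 probes. In 1 fit of all 5 groups it was also called (adjusted P = 0.0308), as were 4791 of 41003 probes. Within the slide that held 2 of these allografts and 2 controls the Pecam1 difference was 2.33, and without hepatic control 1 it was 1.02.

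Vwf at POD8 read 8.96, 9.09 and 8.82, which overlapped the controls, with a difference of -0.12 (95% interval -0.42 to 0.18). Tie1 read 7.83, 7.83 and 7.52 at POD8 against 6.80, 7.49 and 7.34 in the controls. Its groups did not overlap, and the difference of 0.52 did not pass (adjusted P = 0.257). Pecam1, Cdh5 and Tie1 lay wholly above the controls at POD8, as 12.9% of all probes did. Flt1 read 10.49, 10.72 and 10.33 against 11.06, 10.76 and 10.82, wholly below the controls, as 18.6% of all probes were, by 0.37 on average (adjusted P = 0.248). Tek was spread widely among the controls (5.51, 7.04 and 7.45), and its difference of 0.71 had a 95% interval of -0.67 to 2.08 and was 0.13 without control 1. Cdh5 differed by 0.39 (adjusted P = 0.252), and Kdr, Nos3, Stab1 and Stab2 by -0.01, -0.15, -0.04 and -0.12.

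Between the hepatic time points themselves, no member passed, and 0 of all 41165 probes did, although 2 members and 5299 probes had an unadjusted P below 0.05. The 2 members were Vwf and Tie1. Vwf was higher at POD8 than at POD5 by 1.15 (SE 0.16, adjusted P = 0.215), with all 3 POD8 arrays above all 3 POD5 arrays. The dimmer Vwf probe showed a difference of 1.57 (adjusted P = 0.215). Tie1 was higher by 0.46 (adjusted P = 0.308), also without overlap. In all, 9.29% of probes lay wholly higher and 10.4% wholly lower at POD8.

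**Figure D3:**
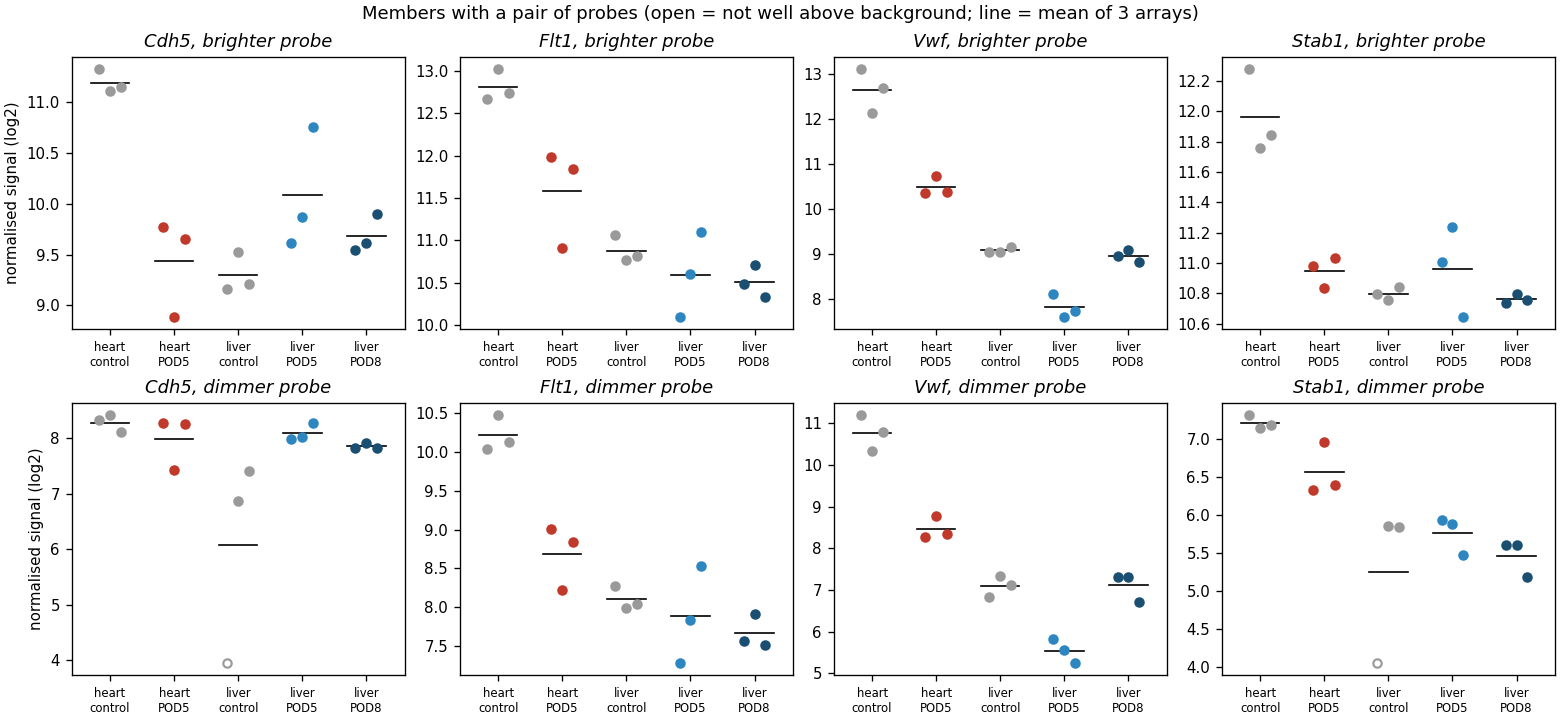
Normalised log2 signal (y axis, own scale per panel) of the 4 members with a pair of probes, brighter probe above and dimmer probe below, on 15 arrays by group; lines are means of 3 arrays and open points were not well above background. The Vwf and Flt1 pairs run alike across groups, while the dimmer Cdh5 probe shows overlapping heart groups and a low value in hepatic control 1.

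The heart and liver responses at POD5 were set against each other as the difference between the cardiac and hepatic differences, in 1 Limma fit of 12 arrays. Cardiac and hepatic allografts also differed in donor and recipient strains and in placement, so organ, strain pair and placement cannot be told apart. The cardiac difference was lower for 5 members, where 13.7% of all 41006 probes were called, 7.26% as lower and 6.41% as higher. Tek had the largest value, -2.69 (SE 0.57, adjusted P = 0.0158), followed by Cdh5 with -2.54 (SE 0.44, adjusted P = 0.0073). Kdr (-1.62, adjusted P = 0.0493), Tie1 (-1.26, adjusted P = 0.0116) and Stab1 (-1.17, adjusted P = 0.0182) also passed. The dimmer probes of Cdh5 (-2.31, adjusted P = 0.161) and Stab1 (-1.16, adjusted P = 0.224) did not pass. With slide as a random block 3 members passed, and Kdr (adjusted P = 0.110) and Stab1 (adjusted P = 0.0684) did not. Kdr also missed the threshold in 10 of the 12 fits that left out an array.

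For Vwf the cardiac and hepatic decreases differed by -0.88, which did not pass (95% interval -1.65 to -0.12, adjusted P = 0.116). Pecam1 (-2.16, adjusted P = 0.0575) and Stab2 (1.46, adjusted P = 0.0522) did not pass, but Pecam1 was called in 5 and Stab2 in 7 of 11 other processing settings. Without hepatic control 1, Pecam1 read -1.49 and Stab2 1.65, and both were called (adjusted P = 0.0144 and 0.0393). Nos3 (-0.56) and Flt1 (-0.95) had adjusted P-values of 0.14 and 0.182.

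The control hearts and control livers were also compared for the 10 genes. The strain of either is not stated, so organ and strain cannot be told apart here. Compared with the liver, the control heart had higher signals for 8 members and a lower signal for Stab2, and Kdr did not pass. In this comparison 48.2% of all 41023 probes were called, 25.5% as higher in the heart and 22.7% as lower, while 30.7% lay wholly above and 35.7% wholly below the liver. Vwf was 11.8-fold higher in the heart (log2 difference 3.56, SE 0.26, adjusted P = 3.01e-04), and Pecam1 12.4-fold (3.64, SE 0.60, adjusted P = 0.00499). Pecam1 was not well above background on hepatic control 1, and its log2 difference was 2.97 without that array. Tek was 6.92-fold, Nos3 4.62-fold, Tie1 3.89-fold, Flt1 3.81-fold, Cdh5 3.72-fold and Stab1 2.24-fold higher. Stab2 was 26.6-fold lower in the heart, from signals of 10.04, 10.57 and 10.69 in the hepatic controls to those near 5.7 given above. The Stab2 signals of the cardiac allografts thus stayed below every hepatic array, the lowest of which read 9.52. Kdr differed by 0.09 (95% interval -0.40 to 0.57).

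The genes most like a member were sought as those whose centred log2 profile over the 15 arrays had the smallest root mean square distance from it. For Cdh5 these were Pik3r1 (0.268), Fcho2 (0.270) and Zfp26 (0.290), where the median named gene lay at 0.951. For Vwf they were Rpp25 (0.445), Rab6b (0.467) and Clip3 (0.480), and for Stab2 they were Fads6 (0.222), Sec14l3 (0.230) and Qsox1 (0.241). The corresponding medians were 1.71 and 2.06. Much of each profile is the step between organs.

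Other genes of the endothelial programme were read from lists, of which 7 are plotted. Among the ligands, coreceptors and regulators of the VEGF and angiopoietin receptors, 4 of 11 fell in the cardiac allografts and 0 rose. Ptprb, a phosphatase that restrains Tek, fell by 2.72 (SE 0.47, adjusted P = 0.0108). Angpt1, the agonist of Tek, fell by 2.60 (SE 0.18, adjusted P = 0.00105), with 2 of 3 allograft arrays well above background. Vegfa differed by 0.55 (adjusted P = 0.188) and Angpt2, the context-dependent antagonist of Tek, by 0.28 (adjusted P = 0.504). In the liver 0 of these 11 genes passed in Limma at POD5 or POD8, where 4 and 3 had an unadjusted P below 0.05. For this and the following lists, the background of unadjusted P-values below 0.05 was 8468 among 41155 probes for POD5 and 9116 among 41157 for POD8. Of all probes, 16.4% were called lower and 15.6% higher in the cardiac allografts. In the hepatic allografts 0.778% were called lower and 2.38% higher at POD5, and 1.44% and 3.53% at POD8.

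Of 13 endothelial transcription factors measured out of 14 listed, 10 fell in the cardiac allografts, with a median difference of -1.39 over the list. Epas1, the hypoxia-inducible factor HIF-2α, fell by 2.55 (SE 0.30, adjusted P = 0.00385), and Sox17, a factor of arterial endothelium, by 2.40 (SE 0.21, adjusted P = 0.00169). In the liver Gata2, a factor of endothelial and blood progenitor cells, was the one member of this list to pass, higher by 0.96 at POD8 (adjusted P = 0.032). At POD5 0 passed in Limma and 4 had an unadjusted P below 0.05.

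Of 20 other pan-endothelial genes, 8 fell and 1 rose in the cardiac allografts. Clec14a, a C-type lectin of vessels, fell by 4.73 (SE 0.62, adjusted P = 0.00502) and was well above background on 1 of the 3 allograft arrays. Calcrl, the adrenomedullin receptor, fell by 2.70 (SE 0.16, adjusted P = 8.1e-04), and Acvrl1, the ALK1 receptor, rose by 0.88 (SE 0.21, adjusted P = 0.0293). In the liver Cd93, an endothelial and myeloid glycoprotein, rose by 1.31 at POD5 (adjusted P = 0.0242) and by 1.25 at POD8 (adjusted P = 0.0163), the only call of the 20 at either time.

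**Figure D4:**
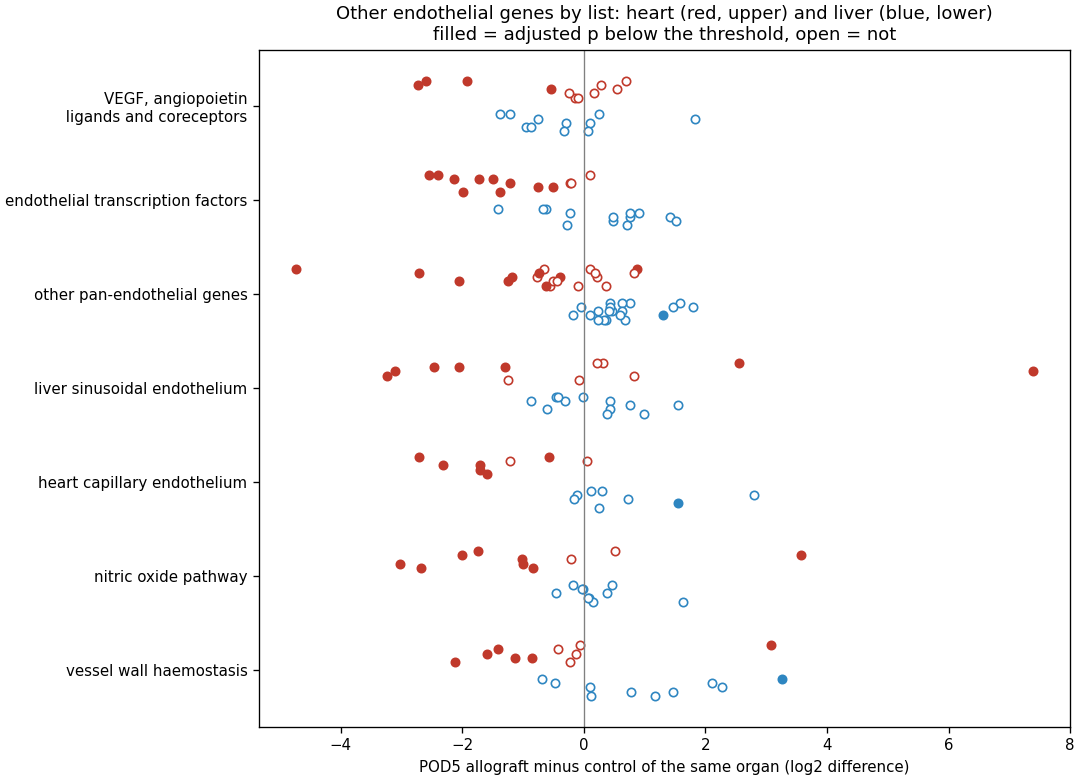
Log2 difference of POD5 allograft minus control of the same organ (x axis) for every gene of 7 endothelial lists (y axis), heart in red above and liver in blue below, 3 arrays a group; filled points passed the adjusted test. Red points lie mostly left of 0 with a few far to the right (Dnase1l3 at 7.39, and Nos2 at a fitted 3.58 although its controls were not above background), and blue points are almost all open.

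Genes of heart capillary endothelium fell in 6 of 8 cases in the cardiac allografts, with a median of -1.65. Aqp1, a water channel, fell by 2.71 (SE 0.20, adjusted P = 0.00122), and Cd36, a fatty acid receptor, by 2.31 (SE 0.21, adjusted P = 0.00198). Fabp4, a fatty acid binding protein of capillaries, macrophages and fat cells, rose in the hepatic allografts by 1.54 at POD5 (adjusted P = 0.0421) and 1.57 at POD8 (adjusted P = 0.037).

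Of 12 genes of liver sinusoidal endothelium, 5 fell and 2 rose in the cardiac allografts. Mrc1, the mannose receptor shared with macrophages, fell by 3.23 (SE 0.10, adjusted P = 3.5e-04), and Lyve1, a hyaluronan receptor of lymphatic and sinusoidal vessels and of resident macrophages, by 3.11 (SE 0.34, adjusted P = 0.00296). Dnase1l3, a secreted nuclease also made by dendritic cells and macrophages, rose by 7.39 (SE 0.34, adjusted P = 6.0e-04), from a control mean of 2.46 at which 1 of 3 arrays was well above background. Bmp2, a sinusoidal ligand, rose by 2.55 (SE 0.28, adjusted P = 0.00305). In the liver itself 0 of the 12 passed in Limma at POD5, where 3 had an unadjusted P below 0.05, and at POD8 Wnt2, a Wnt ligand of sinusoids, fell by 1.11 (adjusted P = 0.0429).

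Of 10 nitric oxide pathway genes besides Nos3, 7 fell in the cardiac allografts. Of the subunits of guanylate cyclase, the nitric oxide receptor, Gucy1a1 fell by 3.02 (SE 0.29, adjusted P = 0.0022) and Gucy1b1 fell by 2.68 (SE 0.10, adjusted P = 4.4e-04). Nos2, the inducible synthase of activated macrophages, rose at least 7.0-fold (adjusted P = 5.0e-04), a lower bound because it was not well above background on any control array. The bound sets the allograft mean against the lowest signal well above background on each control array, or the probe's own signal where that was higher. In the liver 0 of the 10 passed in Limma at either time, with 0 at POD5 and 2 at POD8 below an unadjusted P of 0.05.

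Of 10 vessel wall haemostasis genes besides Vwf, 5 fell and 1 rose in the cardiac allografts. Thbd, thrombomodulin, fell by 2.12 (SE 0.20, adjusted P = 0.00214), and F8, the clotting factor that circulates bound to von Willebrand factor, by 1.60 (SE 0.16, adjusted P = 0.0025), with 2 of 3 allograft arrays well above background. Procr, the endothelial protein C receptor, rose by 3.08 (SE 0.39, adjusted P = 0.00449). Procr also rose in the hepatic allografts, by 3.26 at POD5 (SE 0.34, adjusted P = 0.0175) and 3.32 at POD8 (SE 0.34, adjusted P = 0.0115), the only call of the 10 at either time.

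Markers of other cell types moved with these results, and their part in them was not tested. In the cardiac allografts all 7 T cell markers were higher, and their summed signal went from 457 to 672 in the controls to 11611 to 18305. Of 6 macrophage markers measured 1 was higher and 0 lower. Beside these and the following counts, 15.6% of all probes were called higher and 16.4% lower. Fibroblast markers were lower in 5 of 5 cases (sums 289861 to 433517 in controls, 113496 to 139944 in allografts) and smooth muscle and pericyte markers in 4 of 7 (47278 to 66528 and 31518 to 40573). Platelet and megakaryocyte markers were lower in 4 of 6 cases, with sums of 19313 to 22239 in the controls and 1345 to 3900 in the allografts, and Vwf and Pecam1 are also expressed by these cells. Of the cardiomyocyte markers 3 of 7 were lower and 0 higher (789150 to 920908 and 480119 to 707597). All markers of these 6 lists were well above background on every cardiac array. Kupffer cell markers, some of which resident cardiac macrophages also express, were lower in 3 of 5 cases (961 to 4398 and 1392 to 8847).

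In the hepatic allografts 6 of 7 T cell markers were higher at both times (sums 465 to 559 in controls, 7882 to 13116 at POD5 and 6890 to 8737 at POD8). Of all probes, 2.38% were called higher at POD5 and 3.53% at POD8. Cd8a was not well above background in any hepatic control. Kupffer cell markers summed to 26459 to 70461 in the controls, 100039 to 118499 at POD5 and 121444 to 149333 at POD8, with 0 and 1 of 5 called higher. Beside the Vwf decrease at POD5, platelet and megakaryocyte markers summed to 834 to 1066 in the controls and 677 to 1000 at POD5, with 0 of 6 called in Limma and 1 at an unadjusted P below 0.05. At POD8 they summed to 1037 to 1473, and Ppbp, a platelet chemokine, was higher by 1.57 (adjusted P = 0.013).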

How the data were processed

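Mouse gene expression was measured on 15 single-colour (Cy3) Agilent arrays of total RNA, 3 for each of 5 groups taken from the sample labels. The authors deposited the processed intensity of each spot on the linear scale, made with Agilent Feature Extraction 10.5.1.1 by background subtraction, with arrays not yet scaled to each other. The deposited intensities also hold the median signal of spot and background, used in 1 alternative. No genome build bears on the values used here.

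From the processed signal, log2 was taken, outlier-marked spots were left out (47 to 113 of 43379 per array, with 0 saturated), spots of a probe were averaged, and all 15 arrays were quantile normalized, as the study's methods state (there on natural logs). Probes were named by matching the accession in the files to RefSeq's table for GRCm38.p6 (26690 of 41174 probes, 64.8%). A probe counted as well above background when at least 0.5 of its spots were marked so. Each comparison was fitted on the groups compared with limma 3.58.1 in R 4.3.3, without covariates, with Benjamini-Hochberg adjustment over all probes tested. Intervals are 95%. Plots were made in Python 3.11.15 (matplotlib 3.10.9).

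The 10 members and the gene lists were chosen with earlier results of these data known. All members were named, and of each list up to 2 genes in each direction with the largest called differences in a comparison, together with the 3 nearest profiles of Cdh5, Vwf and Stab2. Beyond that rule, Vegfa and Angpt2 were named after their values were seen. The hepatic POD5 and POD8 comparisons share their controls. Alternatives were other scalings, normexp with an offset of 50 on median signals, outlier spots kept, only probes well above background in a group, 1 fit of all 5 groups, a prior that is trended and robust, SFC with a bin of 1000, the methods' t-test, replicate and slide blocks, the mean of a gene's probes, and leaving out each array. Slide as a fixed block was chosen after seeing the data. Same-numbered samples were checked for pairing. The Limma fit, the t-test and SFC were tested on simulated log2 values, and the other steps were not. The number of arrays limits the precision.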

Additional observations from a re-analysis of the deposited data

Results flagged for a closer look

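The cardiac and hepatic responses at POD5 differed for 5 of the 10 members by a test of the difference itself, the interaction in 1 Limma fit of 12 arrays with adjustment over all probes. On the log2 scale, heart minus liver, the difference was -2.54 for Cdh5, -1.62 for Kdr, -2.69 for Tek, -1.26 for Tie1 and -1.17 for Stab1. The dimmer probes of Cdh5 (-2.31, adjusted P = 0.161) and Stab1 (-1.16, adjusted P = 0.224) were not called. With slide as a random block Kdr (adjusted P = 0.110) and Stab1 (adjusted P = 0.0684) were not called, and Kdr missed the threshold in 10 of the 12 fits that left out an array. Each of these genes fell in the heart and had a hepatic difference that was above 0 and did not pass the test. Hepatic allograft 3 shared the slide of the cardiac allografts, and the other arrays of these groups were on other slides. Organ cannot be told apart from strain pair and placement in this contrast. Groups of 3 arrays were not searched for outlying samples.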

How the results depend on the processing

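In the heart, none of the 180 member values under the alternatives turned direction, and 33 lost their call. SFC called 0 members in the heart, at hepatic POD5 and between the control organs, and without 1 array the cardiac count ran from 5 to 10. The hepatic POD5 count of 1 became 0 under SFC, the methods' t-test, the replicate block and slide as a random block, and ran from 0 to 0 without 1 array. The hepatic POD8 count of 0 became 1 with 75th percentile scaling and in 1 fit of 5 groups. The interaction count of 5 became 3 with slide as a random block, 6 with normexp or the trended and robust prior, 7 with 75th percentile scaling, only probes above background, 1 fit of 5 groups or the mean of a gene's probes, and ran from 4 to 6 without 1 array. The methods' t-test put 10 cardiac members under its unadjusted threshold, 0 after Bonferroni and 7 after Benjamini-Hochberg adjustment. Of all 41025 probes, 16959 were under the unadjusted threshold of this test and 10499 passed after Benjamini-Hochberg adjustment.

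Differences that turned sign were small and uncalled. With 75th percentile scaling Kdr read -0.14 at hepatic POD5 and -0.14 between the control organs. Under SFC Tie1 read -0.13 at hepatic POD5, Kdr 0.0204 at hepatic POD8 and Nos3 0.0147 between the time points. At hepatic POD8, Stab1 read 0.0912 as the mean of its probes and Stab2 0.13 with slide as a fixed block, a setting chosen after seeing the data. Without 1 array, at hepatic POD5 Kdr ran from -0.10 to 0.21, Tie1 from -0.14 to 0.20 and Nos3 from -0.21 to 0.0238, and at POD8 Kdr from -0.11 to 0.12 and Stab2 from -0.32 to 0.0047. Between the time points Kdr ran from -0.22 to 0.0878, Flt1 from -0.34 to 0.16, Tek from -0.0279 to 0.27, Nos3 from -0.10 to 0.0358 and Stab2 from -0.0069 to 0.51, and between the control organs Kdr from -0.0074 to 0.23. The cause was not tested.

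Same-numbered samples did not deviate together (correlations -0.12 to 0.09), so the numbers were not taken as pairs. The replicate block called 7 cardiac and 0 hepatic POD5 members, and in the heart it called 8859 of all 41025 probes. Over all probes, the cardiac count of 13116 became 21196 with 75th percentile scaling and 242 under SFC. The hepatic POD5 count of 1301 became 2204 with only probes above background, 6205 in 1 fit, 346 under SFC, 231 by the t-test, 573 with the slide block and 0 with the replicate block. At POD8, 2046 (1453 higher, 593 lower) became 12875 (2368 and 10507) with 75th percentile scaling, 4791 in 1 fit, 359 under SFC, 816 by the t-test and, with a replicate or fixed slide block, 0. Between the time points 0 became 213 under SFC, 12 in 1 fit and 6 with only probes above background. Without 1 array the counts over all probes ran from 7573 (without control 3) to 17228 in the heart, from 28 (without allograft 2) to 1026 at hepatic POD5, from 306 (without allograft 1) to 2623 at POD8 and from 2923 to 7210 in the interaction. The interaction count of 5605 (2628 and 2977) became 15596 (12830 and 2766) with 75th percentile scaling and 2758 with the slide block, and that between the control organs, 19781 (10460 and 9321), became 28352 (8762 and 19590) and 595 under SFC. 75th percentile scaling shifted the median of all probes to -0.38 at hepatic POD5, -0.46 at POD8, -0.14 between the time points, 0.64 in the interaction and -0.76 between the control organs. Normalization within each organ was not run between the organs, nor the slide block in the heart. Signal over background limits Pecam1 and the dimmer Cdh5 and Stab1 probes on hepatic control 1. The 95% intervals of Pecam1 and Tek at hepatic POD5 were -0.17 to 2.89 and -0.72 to 1.94.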

Other observations

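In the comparison of the cardiac with the hepatic difference at POD5, endothelial genes outside the 10 members also passed. Organ, strain pair and placement cannot be told apart there either. Fabp4 had a difference of -3.26 (adjusted P = 7.8e-04) and Rgcc, a cell cycle regulator of heart capillaries, of -4.02 (adjusted P = 0.0119). Sox18 (-2.26, adjusted P = 0.00707) and Gata2 (-2.09, adjusted P = 0.00718) also had lower cardiac than hepatic differences. Of the endothelial transcription factors 8 of 13 passed as lower and 0 as higher, and of the other pan-endothelial genes 9 of 20 and 0. Of the liver sinusoidal genes 3 of 12 passed as lower and 2 as higher (Dnase1l3 6.64 and Bmp2 2.56), and of the nitric oxide pathway 5 of 10 and 1. The heart capillary genes had 5 of 8 and 0, the haemostasis genes 4 of 10 and 0, and the VEGF and angiopoietin genes 2 of 11 and 0. Over all probes 7.26% passed as lower and 6.41% as higher. Gata2 and Rgcc were each well above background on 2 of the 3 hepatic control arrays.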
